A study of Homo sapiens with 10 samples.

Results

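CD44, CD24, PROM1, THY1, SALL4, POU5F1, KLF4, SOX9, LIN28B and ALDH1A1 are used in liver cancer to mark tumor cells with stem-like properties. These 10 genes were chosen by name, matched to their Ensembl identifiers and read in each of the 10 deposited gene tables, which list 58302 genes. All 10 were found. ALDH1A1, LIN28B, PROM1, CD24 and SALL4 were high in Huh-7 cells and low or absent in SK-hep1 cells. CD44, THY1 and KLF4 were higher in SK-hep1 and Mahlavu mock cells than in untreated Huh-7 cells. Within SK-hep1 and Mahlavu cells only CD44, THY1, KLF4, SOX9 and CD24, and ALDH1A1 in 1 comparison, passed a filter on low values. Each of the former 5 differed at least 2-fold in 1 or more comparisons between libraries of the same line. Of all genes, 4.96% to 8.82% did so in a single comparison, and the share in 1 or more was not computed. Whether the markers differ from all genes in this was thus not tested. The remaining markers were too low in these lines to be counted.

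Cancer stem cell markers are of several kinds. CD44 is the receptor for hyaluronan, CD24 is a small mucin-like protein held in the membrane by a lipid anchor, PROM1 encodes the membrane protein CD133, and THY1 encodes the surface protein CD90. Antibodies to these 4 proteins are used to sort tumor-initiating cells. SALL4, POU5F1 (Oct-4), KLF4 and SOX9 are transcription factors, of which SALL4, POU5F1 and KLF4 act in pluripotent cells and SOX9 is known from bile duct and liver progenitor cells. LIN28B is an RNA-binding protein that blocks the maturation of let-7 microRNAs and is an oncofetal gene of the liver. ALDH1A1 oxidizes retinaldehyde to retinoic acid, and aldehyde dehydrogenase activity is used to mark stem-like cells. ALDH1A1 is also abundant in normal hepatocytes.

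The study asked how PSPC1, a paraspeckle protein, and PTK6, a tyrosine kinase that binds it, change liver cancer cells. SK-hep1 cells were a mock control or overexpressed PSPC1 or PSPC1-Y523F, each form of PSPC1 with and without PTK6, where Y523F stands for PSPC1 with the tyrosine that PTK6 phosphorylates replaced by phenylalanine (the labels name it only as a YF mutation). The libraries with both genes are called PSPC1/PTK6 and PSPC1-Y523F/PTK6. Mahlavu transfectants were mock control, PSPC1-CT131, which is the C-terminal part of PSPC1, and Mut-NLS-CT131, in which the nuclear localization sequence (NLS) was mutated. The label of the last names only an NLS mutation of PSPC1, and the paper's sequencing methods call it PSPC1-mutNLS. That it carries only the C-terminal part is taken from the paper's other experiments. Huh-7 cells were untreated or given 10 ng/ml of HGF (hepatocyte growth factor, the ligand of c-Met) for 48 h. All lines were grown in the same serum-containing medium. PSPC1 carried an HA tag and PSPC1-CT131 was placed in a GFP fusion vector, while PTK6 was used with a Flag or a His tag, and which of these the sequenced cells had is not given in the sources used here. Whether the sequenced transfectants were 1 clone or a mixture is not given in the sources used here. Each condition had 1 library, so no difference between conditions has a replicate check and no p-value is given.

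Reads on genes numbered 15245935 to 16374128 in the 2 Huh-7 libraries and 19085682 to 24278662 in the 8 others. Levels are given as FPKM, which are reads scaled for the length of the gene and the reads of the library. Intervals in the text are exact 95% Poisson intervals for a level and exact 95% binomial intervals for a ratio of reads between libraries, and they cover counting error only, not differences between cultures. Fold changes on the log2 scale were taken from quantile-normalized FPKM + 1 and were read only where a gene's mean in the compared libraries reached 1 FPKM. The pseudocount of 1 shrinks the fold change of low genes, so the ratio of reads is given beside it.

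PSPC1 itself had 0 FPKM in SK-hep1 mock cells, 7.01 FPKM with PSPC1, 26.4 with PSPC1/PTK6, 2.28 with PSPC1-Y523F and 70.9 with PSPC1-Y523F/PTK6. The amount of PSPC1 RNA thus differed between the PSPC1 libraries, and it was 31.1-fold higher in PSPC1-Y523F/PTK6 than in PSPC1-Y523F in reads scaled by the library totals. PTK6 was at 4.79, 5.69, 16.7, 4.09 and 10.5 FPKM in the same order. PSPC1 RNA was thus present in each SK-hep1 library labelled with it, and PTK6 was higher in those labelled with PTK6. Gene counts do not tell PSPC1 from PSPC1-Y523F, and PSPC1 had 71 reads in the PSPC1-Y523F library. In Mahlavu cells PSPC1 was at 47.3 FPKM in mock, 30.8 in PSPC1-CT131 and 22.5 in Mut-NLS-CT131. Both libraries labelled as overexpression were thus lower than mock, and the overexpression was not seen in the gene counts. These counts do not tell a fragment of PSPC1 from the whole, and the cause was not tested. All 3 lines are labelled as hepatocellular carcinoma. Of 8 hepatocyte markers, 8 reached 1 FPKM in Huh-7 cells (ALB at 5948 FPKM in untreated cells), but only SERPINA1 did in SK-hep1 and Mahlavu cells, where ALB was at 0 FPKM in both mock libraries. Of 8 endothelial markers, only EGFL7 reached 1 FPKM in SK-hep1 and Mahlavu cells, while 2 did in untreated Huh-7 cells and 3 with HGF, among them PECAM1 at 5.31 and 4.12 FPKM. Of 5 leukocyte markers, 1 did in each line. Between 3 and 4 of 6 fibroblast markers did in the libraries of SK-hep1 and Mahlavu cells and 4 in those of Huh-7 cells. The part of these differences in the marker levels below was not tested.

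ALDH1A1 (chromosome 9, 72900662 to 73080442, minus strand, GRCh38) had the highest level of any of the 10 genes. It was at 2606 FPKM in untreated Huh-7 cells and 2648 FPKM after HGF, from 37970 and 35933 reads. In SK-hep1 cells it was at 0.207 FPKM in mock, and the libraries with PSPC1 and PSPC1/PTK6 had 0.444 and 0.329 FPKM, and those with PSPC1-Y523F and PSPC1-Y523F/PTK6 had 0.639 and 0.787. Mahlavu cells had 0.0991 FPKM in mock, 1.42 in PSPC1-CT131 and 0.0589 in Mut-NLS-CT131. No SK-hep1 or Mahlavu library had more than 25 reads, so that differences among these libraries rest on few reads. The log2 fold change of SK-hep1 mock against untreated Huh-7 cells was −10.58, and that of Mahlavu mock was −11.07.

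LIN28B (chromosome 6, 104936616 to 105083332, plus strand) was detected in Huh-7 cells only. It was at 132 FPKM without HGF and 121 FPKM with it, from 6507 and 5576 reads. All 5 SK-hep1 and all 3 Mahlavu libraries had 0 reads. Taking 3 reads as the limit that a count of 0 allows in a library, untreated Huh-7 cells had at least 2871-fold more LIN28B than SK-hep1 mock and at least 3005-fold more than Mahlavu mock. PROM1 (chromosome 4, 15963076 to 16084378, minus strand) followed the same order. Untreated Huh-7 cells had 42.5 FPKM from 1198 reads and HGF-treated cells 34.3 FPKM from 899 reads, against 0 reads in all SK-hep1 libraries. In Mahlavu cells, 3 reads were found in mock and 0 in the other two libraries. The level in untreated Huh-7 cells was at least 529-fold that in SK-hep1 mock, again with 3 reads as the limit.

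The promoters of these 3 genes are shown because their RNAs were high in Huh-7 and at or near 0 elsewhere together. RefSeq has promoter windows on GRCh38.p14 for 6 of the 10 genes, 12 windows in all, since PROM1, CD24 and LIN28B have several start sites. The 250 bases before the most upstream listed start are printed 5′ to 3′ on the strand of the gene, with CG dinucleotides (CpG, the site of DNA methylation) in capitals. They come from chr4:16084024-16084273 for PROM1 (minus strand), chr6:104940715-104940964 for LIN28B (plus strand) and chr9:72953054-72953303 for ALDH1A1 (minus strand).
PROM1: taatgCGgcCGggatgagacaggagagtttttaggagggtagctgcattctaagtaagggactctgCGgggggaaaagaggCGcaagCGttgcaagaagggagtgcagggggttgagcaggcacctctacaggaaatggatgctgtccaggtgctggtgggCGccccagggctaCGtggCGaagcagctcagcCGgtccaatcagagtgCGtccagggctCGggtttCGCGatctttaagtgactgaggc
LIN28B: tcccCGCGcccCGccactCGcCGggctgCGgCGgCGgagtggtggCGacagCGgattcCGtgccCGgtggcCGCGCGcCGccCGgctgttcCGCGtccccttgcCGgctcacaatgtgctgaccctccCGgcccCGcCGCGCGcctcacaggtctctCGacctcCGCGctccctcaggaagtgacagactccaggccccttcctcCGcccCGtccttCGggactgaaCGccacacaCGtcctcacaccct
ALDH1A1: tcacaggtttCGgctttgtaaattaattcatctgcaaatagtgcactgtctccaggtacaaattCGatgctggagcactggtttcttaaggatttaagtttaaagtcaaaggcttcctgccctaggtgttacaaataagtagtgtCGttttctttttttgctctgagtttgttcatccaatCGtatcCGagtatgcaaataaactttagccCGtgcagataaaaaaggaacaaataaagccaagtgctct

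The 3 printed windows differ widely in CpG content. That of LIN28B holds 33 CG dinucleotides, a number that 8.15% of all 35116 windows reach. That of PROM1 holds 13 (46.6% of windows reach it) and that of ALDH1A1 holds 6 (61.9%). Other start sites of the same genes differ from these, with 6 for LIN28B and 26, 17 and 5 for PROM1, so the order depends on the start chosen. The median window holds 11. The genes with RNA in SK-hep1 and Mahlavu cells lie in the same range, with 15 for CD44 and 25 for KLF4. The letters CCAAT, searched on both strands, occur in the windows of PROM1 and ALDH1A1 shown and in 32.0% of all windows, and TATAAA occurs in none of the 12 windows against 10.7% of all. A match or its lack describes these letters only, and the methylation of the CpG sites was not measured here.

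CD24 (chromosome 6, 106969831 to 106975627, minus strand) was present in all 3 lines, with a clear order. Huh-7 cells had 1171 FPKM untreated and 1029.9 FPKM with HGF. Mahlavu cells had 109 FPKM in mock, 44.7 in PSPC1-CT131 and 63.4 in Mut-NLS-CT131, and SK-hep1 cells had 5.48 FPKM in mock. The other SK-hep1 libraries had 3.57 FPKM with PSPC1 and 3.75 with PTK6 added, and 1.65 FPKM with PSPC1-Y523F and 7.61 with PTK6 added. No library of one line overlapped with those of another. The ratio of reads of SK-hep1 mock to untreated Huh-7 cells was 0.00468 (95% interval 0.00391 to 0.00556). SALL4 (chromosome 20, 51782331 to 51802520, minus strand) had the same order at low levels. It was at 7.71 and 11.4 FPKM in untreated and HGF-treated Huh-7 cells. Mahlavu cells had 1.03 FPKM in mock, 0.601 in PSPC1-CT131 and 0.922 in Mut-NLS-CT131, from 45 reads or fewer, and no SK-hep1 library had more than 6 reads.

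CD44 (chromosome 11, 35138870 to 35232402, plus strand) ran in the opposite order. SK-hep1 cells had 743 FPKM in mock, 449 FPKM with PSPC1 and 964 with PTK6 added, and 592 FPKM with PSPC1-Y523F and 765 with PTK6 added. Mahlavu cells had 332 FPKM in mock, 528 in PSPC1-CT131 and 331 in Mut-NLS-CT131, and Huh-7 cells had 27.3 FPKM untreated and 28.3 with HGF. The Huh-7 libraries lay below all others, while the SK-hep1 and Mahlavu libraries overlapped, because PSPC1 in SK-hep1 fell under PSPC1-CT131 in Mahlavu. Scaled reads of CD44 were 27.2-fold higher in SK-hep1 mock than in untreated Huh-7 cells (24.8 to 30.0), and 12.2-fold higher in Mahlavu mock (11.1 to 13.4). THY1 (chromosome 11, 119417378 to 119424985, minus strand) had 0 reads in both Huh-7 libraries. SK-hep1 mock had 11.9 FPKM and Mahlavu mock 4.73 FPKM, which with 3 reads as the limit were at least 81.1-fold and 32.2-fold higher than untreated Huh-7 cells.

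KLF4 (chromosome 9, 107484852 to 107490482, minus strand) was at 2.30 FPKM in untreated and 2.16 in HGF-treated Huh-7 cells, the lowest values of the series. The Mahlavu libraries had 15.3 FPKM in mock, 23.0 in PSPC1-CT131 and 24.3 in Mut-NLS-CT131. SK-hep1 libraries ranged from 2.97 FPKM in PSPC1-Y523F/PTK6 to 19.5 FPKM in PSPC1/PTK6, so that their values overlapped with Mahlavu but not with Huh-7. The counting intervals of PSPC1-Y523F/PTK6 (2.49 to 3.51) and untreated Huh-7 cells (1.80 to 2.89) did overlap. SOX9 (chromosome 17, 72121020 to 72126420, plus strand) was the gene in which Mahlavu cells stood apart. They had 1.73 FPKM in mock, 4.76 in PSPC1-CT131 and 2.52 in Mut-NLS-CT131, against 16.0 to 46.5 FPKM in SK-hep1 libraries and 35.2 and 45.4 FPKM in Huh-7 cells with and without HGF. SK-hep1 and Huh-7 overlapped in SOX9. POU5F1 (chromosome 6, 31164337 to 31180731, minus strand) did not reach 1 FPKM in any library. Its highest value was 0.966 FPKM, from 26 reads in Mahlavu mock, and its lowest 0.111 FPKM, from 2 reads in HGF-treated Huh-7 cells. At this depth, differences in POU5F1 between SK-hep1 libraries (3 to 11 reads) were not detectable.

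Between the lines, 9 of the 10 markers passed the filter in SK-hep1 mock against untreated Huh-7 cells. Of these, 3 were at least 2-fold higher (CD44, THY1 and KLF4) and 5 at least 2-fold lower (CD24, PROM1, SALL4, LIN28B and ALDH1A1), when 49.9% of the 14139 genes tested changed as much. SOX9 was the exception, with a log2 fold change of −0.41. KLF4 was past the threshold after quantile normalization over the control libraries (1.46), but its ratio of reads was 1.90 (1.44 to 2.53), and its log2 fold change was 0.70 with FPKM as deposited and 0.77 with a pseudocount of 5. Mahlavu mock differed from untreated Huh-7 cells in all 9 markers tested, with the same 3 higher and SOX9 added to the 5 lower, beside 45.5% of all genes. In SK-hep1 mock, the median log2 fold change was −2.67 over the 9 markers and 0.05 over all genes. In Mahlavu mock these were −3.51 and −0.01. LIN28B, PROM1 and ALDH1A1 passed the filter in both comparisons only through Huh-7 cells, and SALL4 did so against SK-hep1 mock (0.0477 FPKM). THY1, with 0 reads in Huh-7 cells, passed only through the other lines. The direction of these markers was thus set by the filter, and the counts and medians rest partly on them. Between SK-hep1 mock and Mahlavu mock, 5 of 5 tested markers differed at least 2-fold, against 33.4% of all genes. CD44 (log2 fold change 1.02), THY1 (1.77) and SOX9 (4.07) were higher in SK-hep1 and CD24 (−3.81) and KLF4 (−1.03) lower, with CD44 and KLF4 just past the threshold.

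Over all libraries of a line, the values of SK-hep1 and Huh-7 did not overlap in 8 of 9 markers with a mean of at least 1 FPKM, when this held for 77.6% of all such genes. KLF4 is among the 8, though its counting intervals in SK-hep1 PSPC1-Y523F/PTK6 and untreated Huh-7 cells overlap. Mahlavu and Huh-7 did not overlap in 9 of 9, beside 76.9% of all genes. For THY1 this rests on 4 reads in Mut-NLS-CT131 and 7 in PSPC1-CT131 against 0 in Huh-7 cells. The interval of Mut-NLS-CT131 (0.0458 to 0.430 FPKM) overlaps that of untreated Huh-7 cells (0 to 0.181), so this separation is within counting error. SK-hep1 and Mahlavu did not overlap in 3 of 5 markers, THY1 and SOX9 being higher and CD24 lower in SK-hep1, beside 47.4% of all genes. With so few markers, these shares do not set them apart from all genes. In both comparisons with Huh-7, LIN28B, PROM1 and ALDH1A1 again passed the filter only through Huh-7, which set their direction. SALL4, at most 0.130 FPKM in SK-hep1 and 1.03 in Mahlavu libraries, did so as well. THY1, at 0 FPKM in Huh-7 cells, passed only through the other line, and in Mahlavu cells through mock. Libraries of a line share their parent cells and are not replicates of it.

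In SK-hep1 cells with PSPC1 alone, 5 markers passed the filter (CD44, THY1, KLF4, SOX9 and CD24) and 0 differed at least 2-fold from mock, beside 5.58% of all genes. CD44 was lower, with a ratio of reads of 0.604 (0.588 to 0.619), as were SOX9 at 0.708 (0.666 to 0.752) and CD24 at 0.651 (0.486 to 0.868). THY1 had a ratio of 1.32 (1.14 to 1.54) and KLF4 of 1.39 (1.14 to 1.69). None of these intervals includes 1, but how far cultures of the same cells differ was not measured. PSPC1-Y523F alone gave 1 marker past 2-fold of 5 tested, beside 5.29% of all genes. This was CD24, with a log2 fold change of −1.21 and a ratio of reads of 0.300 (0.204 to 0.434) from 38 reads against 130. CD44 was at 0.797 of mock (0.779 to 0.816) and SOX9, unlike in PSPC1, at 1.48 (1.41 to 1.56).

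In PSPC1/PTK6, KLF4 was higher than in mock (log2 fold change 1.63, ratio of reads 4.47, 3.81 to 5.28) and SOX9 lower (−1.11, ratio 0.511, 0.479 to 0.544), so that 2 of 5 tested markers differed at least 2-fold, beside 8.41% of all genes. KLF4 had 892 reads in this library and 138 to 234 in the other 4 SK-hep1 libraries. SOX9 was lower than in mock under each scaling, but with FPKM as deposited its log2 fold change was −0.93. In PSPC1-Y523F/PTK6, THY1 was the marker past 2-fold, with a log2 fold change of 1.53 and a ratio of reads of 2.98 (2.63 to 3.39), 1 of 5 tested beside 5.03% of all genes. THY1 was at 35.5 FPKM there and at 14.6 FPKM in PSPC1-Y523F, 15.8 in PSPC1, 21.0 in PSPC1/PTK6 and 11.9 in mock. In this library CD44 was at 1.03 times the mock level (1.01 to 1.05) and SOX9 at 0.898 (0.851 to 0.948).

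**Figure D1:**
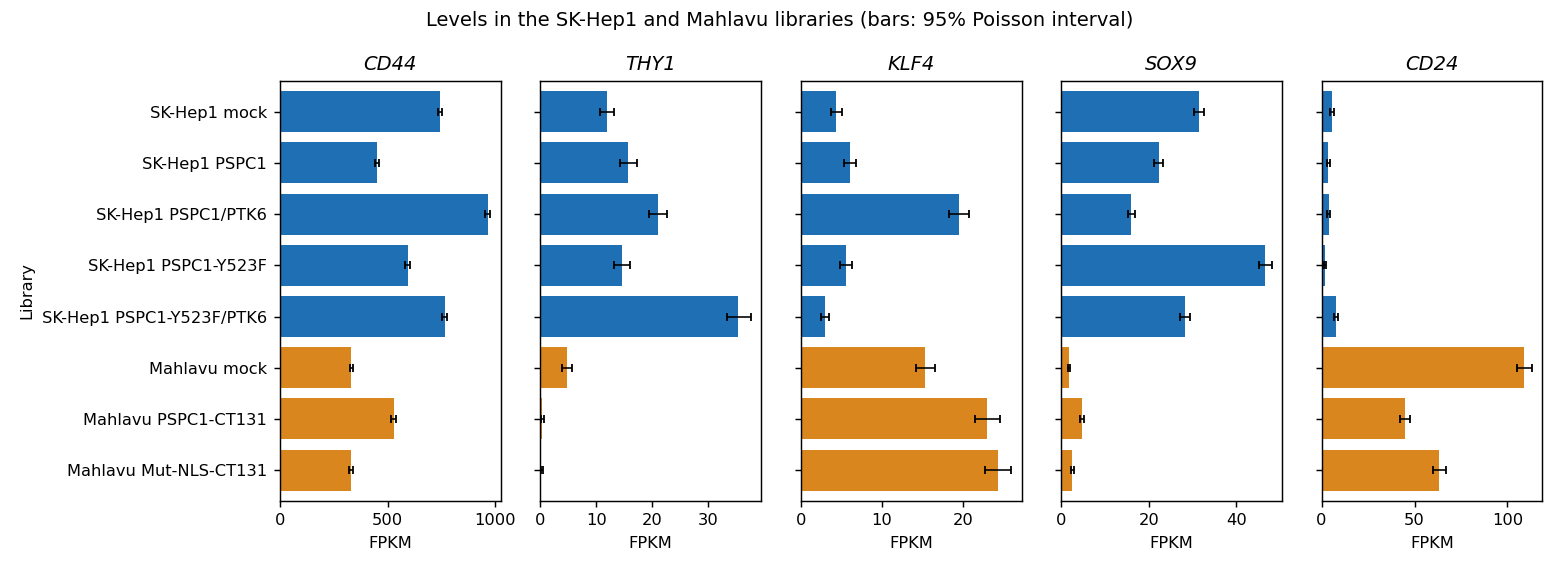
FPKM as deposited on the x axis for CD44, THY1, KLF4, SOX9 and CD24 in the 8 SK-Hep1 and Mahlavu libraries, with exact 95% Poisson intervals of the reads as error bars and a scale from 0 in each panel. KLF4 stands out in SK-Hep1 PSPC1/PTK6, THY1 in SK-Hep1 PSPC1-Y523F/PTK6, and THY1 is near 0 in Mahlavu PSPC1-CT131 and Mut-NLS-CT131.

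The libraries with PTK6 were also set against those with the same form of PSPC1 alone. PSPC1/PTK6 had 2 of 5 tested markers past 2-fold from PSPC1, both higher, CD44 (log2 fold change 1.01, ratio of reads 2.15, 2.10 to 2.20) and KLF4 (1.21, ratio 3.23, 2.79 to 3.74), beside 4.96% of all genes. CD44 was just past the threshold, and with read counts scaled by TMM (a scaling that sets most genes level) it was at 0.89. PSPC1-Y523F/PTK6 had 2 of 6 tested markers past 2-fold from PSPC1-Y523F, both higher, CD24 (1.71, ratio 4.62, 3.25 to 6.71) and THY1 (1.19, ratio 2.43, 2.16 to 2.74), beside 5.98% of all genes. KLF4 was lower in the latter contrast, with a log2 fold change of −0.72 and a ratio of 0.530 (0.426 to 0.658). CD44 was at a ratio of 1.29 (1.26 to 1.32) and SOX9 at 0.607 (0.577 to 0.637), against 0.722 (0.673 to 0.773) for SOX9 when PTK6 came with PSPC1. These contrasts share no library with each other, but each shares its libraries with the contrasts against mock. PSPC1 RNA also differed, being 3.77-fold higher in PSPC1/PTK6 than in PSPC1, and its part in these values cannot be told apart from that of PTK6.

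In Mahlavu cells, THY1 was the marker that differed most from mock. It had 134 reads in mock, 7 in PSPC1-CT131 and 4 in Mut-NLS-CT131, or 4.73, 0.283 and 0.168 FPKM. The ratio of reads to mock was 0.0598 (0.0236 to 0.127) in PSPC1-CT131 and 0.0355 (0.00953 to 0.0930) in Mut-NLS-CT131, and the log2 fold changes, damped by the pseudocount, were −1.74 and −1.90. THY1 was thus low in both transfected libraries. Both comparisons share the mock library, and the part of the nuclear localization sequence was not tested. In PSPC1-CT131, SOX9 was higher than in mock (1.44, ratio of reads 2.76, 2.28 to 3.35) and CD24 lower (−1.23, ratio 0.411, 0.381 to 0.442). Of 5 tested markers, 3 were past 2-fold in this library, beside 6.33% of all genes. CD24 was at −0.97 with read counts scaled by TMM, which leaves it short of 2-fold. In Mut-NLS-CT131 only THY1 was past 2-fold, 1 of 5 beside 6.42% of all genes. CD24 was at a ratio of 0.582 (0.544 to 0.621) and SOX9 at 1.46 (1.17 to 1.82). In both comparisons with mock, THY1 passed the filter only through mock, which set its direction, and both counts include it. CD44 was higher in PSPC1-CT131 (ratio 1.59, 1.54 to 1.64) but not in Mut-NLS-CT131 (0.996, 0.964 to 1.03).

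PSPC1-CT131 against Mut-NLS-CT131 gave 0 of 4 tested markers past 2-fold, beside 8.82% of all genes. The constructs differ only in the nuclear localization sequence if both carry the C-terminal part, which the labels do not say. The largest of the 4 was SOX9 (0.90, ratio of reads 1.89, 1.58 to 2.27), followed by CD44 (0.64, ratio 1.60, 1.55 to 1.65). KLF4 did not differ beyond counting error (ratio 0.946, 0.861 to 1.04) and was 1.50-fold and 1.59-fold higher than in mock in PSPC1-CT131 and Mut-NLS-CT131. ALDH1A1, which missed the filter, had 25 reads in PSPC1-CT131, 2 in mock and 1 in Mut-NLS-CT131, a ratio to mock of 14.3 (3.57 to 125). Fold changes of PSPC1-CT131 followed the GC content of the genes, a description across genes. Spearman's rho was 0.57 over 12402 genes against mock and 0.57 over 12440 genes against Mut-NLS-CT131. After a quadratic fit on length and GC content was subtracted, SOX9 was at 1.33, CD24 at −1.13 and THY1 at −2.02 against mock. Against Mut-NLS-CT131, the same step left 590 of all genes past 2-fold in place of 1098.

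**Figure D2:**
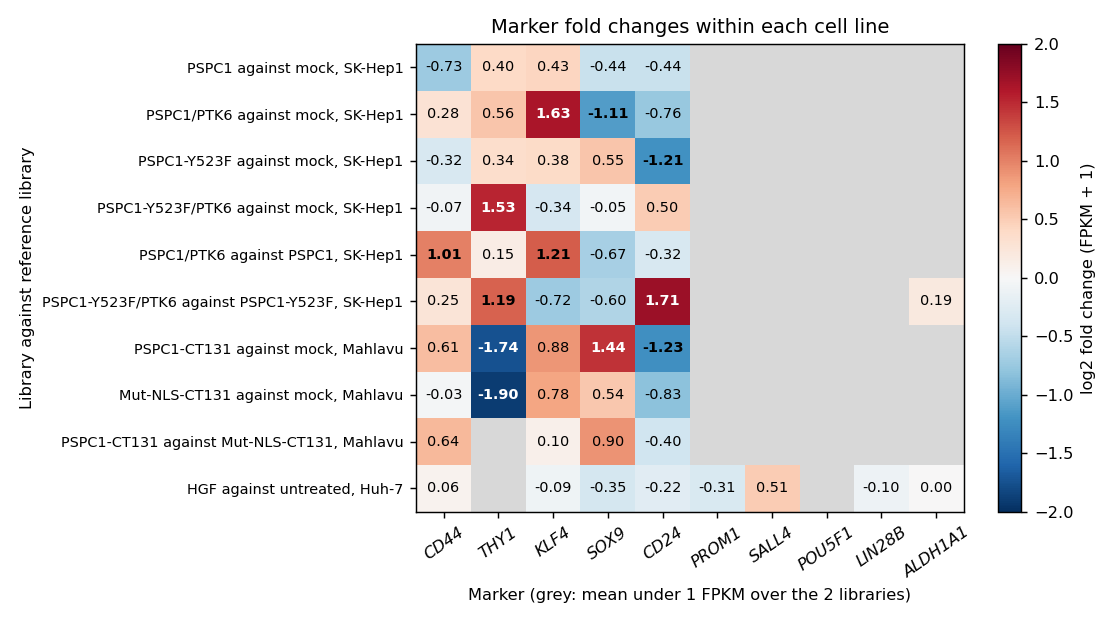
Log2 fold change of quantile-normalized FPKM + 1 for each marker (x axis) in the 10 comparisons within a cell line (y axis), red for higher and blue for lower, with values of at least 1 or at most −1 in bold and grey cells for a mean under 1 FPKM. The bold values lie in CD44, THY1, KLF4, SOX9 and CD24, the markers that are not grey in most SK-Hep1 and Mahlavu comparisons, and none is in the comparison of HGF with untreated Huh-7 cells.

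HGF left the markers of Huh-7 cells within 2-fold of untreated cells. Of 8 tested, 0 were past 2-fold, when 0.82% of the 14262 genes tested were, so a count of 0 was near what all genes gave. SALL4 had the largest difference, 337 reads with HGF against 244 without, a log2 fold change of 0.51 and a ratio of 1.48 (1.25 to 1.76). SOX9 was lower at a ratio of 0.776 (0.733 to 0.821), PROM1 at 0.806 (0.738 to 0.879), CD24 at 0.880 (0.862 to 0.897) and LIN28B at 0.920 (0.888 to 0.954). CD44 at 1.04 (0.908 to 1.19) and KLF4 at 0.940 (0.659 to 1.34) did not differ beyond counting error. ALDH1A1 was at 1.02, with 37970 and 35933 reads behind it.

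Related genes were read from 6 lists. The list of 14 surface markers had 9 tested genes in each SK-hep1 comparison. ICAM1, an adhesion molecule of the cell surface, was the largest change among them, at 205 FPKM in PSPC1/PTK6, 28.8 in PSPC1 and 17.2 in mock, log2 fold changes of 2.69 and 3.41. It was also higher in PSPC1-Y523F/PTK6 (44.8 FPKM, 1.35 against mock and 1.22 against PSPC1-Y523F). KIT, a receptor tyrosine kinase, was lower than in mock in PSPC1 (−1.76) and PSPC1/PTK6 (−1.83). In Mahlavu cells ANPEP (CD13), with 196 FPKM in PSPC1-CT131, was higher than in mock (53.8 FPKM) and Mut-NLS-CT131 (57.6 FPKM), with log2 fold changes of 2.01 and 1.84, and ITGA6, an integrin subunit, was higher than in mock in PSPC1-CT131 (1.06) and Mut-NLS-CT131 (1.09).

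Among 16 stem cell transcription factors, 7 were tested in each SK-hep1 comparison. TBX3, a T-box factor, was lower than in mock (42.4 FPKM) in PSPC1 (16.6 FPKM, −1.20), PSPC1/PTK6 (11.1 FPKM) and PSPC1-Y523F/PTK6 (14.7 FPKM, −1.29). KLF5 was higher in both comparisons that added PTK6, with log2 fold changes of 1.08 with PSPC1 and 1.70 with PSPC1-Y523F, and KLF6 was higher in PSPC1/PTK6 than in mock (1.42). Of the 12 genes of the LIN28 and let-7 axis, HMGA2, a let-7 target, was lower than in mock (79.4 FPKM) in all 4 SK-hep1 transfectants, with 16.0 FPKM with PSPC1 and 33.7 with PTK6 added, and 27.4 FPKM with PSPC1-Y523F and 30.7 with PTK6 added, while LIN28B stayed at 0 reads. Huh-7 cells, with LIN28B, had 148 FPKM of HMGA2 and Mahlavu mock 3.12. TRIM71 and MYCN had 0 reads in SK-hep1 mock and 35.1 and 13.1 FPKM in untreated Huh-7 cells. All 4 comparisons against SK-hep1 mock share that library.

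The 14 aldehyde dehydrogenase and retinoid genes did not all share the order of ALDH1A1. ALDH2, which clears acetaldehyde, was at 69.0 FPKM in untreated Huh-7 cells and 0.0985 in SK-hep1 mock. ALDH1A3, a relative of ALDH1A1 that also makes retinoic acid, was the reverse, with 15.8 FPKM in SK-hep1 mock, 12.2 in Mahlavu mock and 0 in untreated Huh-7 cells. DHRS3, which turns retinaldehyde back to retinol, was at 43.8 FPKM in PSPC1/PTK6 against 4.32 in PSPC1 and 4.97 in mock, and it was lower in PSPC1-CT131 (27.2 FPKM) and Mut-NLS-CT131 (36.0 FPKM) than in Mahlavu mock (74.7 FPKM). ALDH5A1, an enzyme of GABA breakdown, was at 1.01 FPKM in SK-hep1 mock and at least 2-fold higher in all 4 transfectants, from 2.91 FPKM in PSPC1-Y523F to 7.68 in PSPC1/PTK6. Of the 10 ligands, partners and splicing factors of CD44, MSN (moesin, which ties CD44 to actin) was at 611 FPKM in SK-hep1 mock, 586 in Mahlavu mock and 0.334 in untreated Huh-7 cells. Like CD44, MSN was lower in untreated Huh-7 cells than in both mock libraries. ESRP2, an epithelial splicing factor that acts on CD44, was at 41.6 FPKM in untreated Huh-7 cells, 0.895 in SK-hep1 mock and 1.30 in Mahlavu mock. CD74, which forms a receptor with CD44, was lower than in SK-hep1 mock (121 FPKM) with PSPC1 (9.33 FPKM), PSPC1-Y523F (9.06 FPKM) and PSPC1-Y523F/PTK6 (13.8 FPKM), while PSPC1/PTK6 had 77.6 FPKM. SPP1 (osteopontin, a ligand of CD44) was at 441 FPKM in Mut-NLS-CT131 against 91.7 in PSPC1-CT131 and 91.8 in mock. Of the 9 oncofetal and progenitor genes, AFP was at 0.0474 FPKM in SK-hep1 mock and 0.136 in Mahlavu mock, and its log2 fold changes against untreated Huh-7 cells were −12.88 and −12.94. KRT19, a bile duct keratin, was at 305 FPKM in SK-hep1 mock and was higher in PSPC1 (1.06), PSPC1-Y523F (1.09) and PSPC1-Y523F/PTK6 (1.89 on the log2 scale). KRT7, another bile duct keratin, went the other way, from 28.8 FPKM in mock to 6.65 in PSPC1 (−1.82) and 6.14 in PSPC1-Y523F (−1.87), and was higher again with PTK6 added, at 21.6 and 34.1 FPKM.

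In PSPC1/PTK6 against mock, where 8.41% of all genes were past 2-fold, 1 of 9 tested surface markers was at least 2-fold higher and 2 lower, 1 of 7 transcription factors was higher and 1 lower, 0 of 9 genes of the LIN28 axis were higher and 1 lower, and 2 of 9 aldehyde dehydrogenase and retinoid genes were higher and 0 lower. Of the CD44 ligands and partners, 0 of 7 were higher and 2 lower, and of the oncofetal genes 0 of 4 were higher and 1 lower. The median log2 fold changes of these 6 lists were 0.07, −0.05, 0.04, 0.04, −0.35 and −0.60 in the same order, beside −0.04 over all genes. With HGF, 0 genes of the 6 lists were past 2-fold, of 8 to 11 tested in each list, beside 0.82% of all genes. In SK-hep1 mock against untreated Huh-7 cells, the medians were −1.04 for the LIN28 axis, −1.62 for the aldehyde dehydrogenase and retinoid genes and −4.24 for the oncofetal genes. They were 1.27 for the CD44 ligands and partners, 0.18 for the transcription factors and −0.06 for the surface markers, beside 0.05 over all genes. Genes near 0 in SK-hep1 mock, such as AFP at 0.0474 FPKM, passed the filter only through Huh-7 cells, which set their direction.

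The genes whose levels ran most like each marker over the 10 libraries were found by Pearson's r of log2(FPKM + 1) among 15730 genes, as a description of 10 libraries from 3 lines. RHOG and ARRDC2 were nearest to CD44 (r = 0.991 for both), ACAT2 (0.998) and ZBTB20 (0.991) to CD24, CST6 (0.973) and THBS1 (0.972) to THY1, PLXNC1 (0.997) and ZNF701 (0.996) to SALL4, RRAGC (0.972) and CSF1 (0.969) to KLF4, and SDC1 (0.983) and CRKL (0.965) to SOX9. SLCO1B3 and TMEM82 were nearest to ALDH1A1 (0.998 for both). For PROM1 and LIN28B, with 0 to 3 reads in 8 libraries, any gene seen only in Huh-7 cells comes near 1. The values of ALDH1A1 and SALL4, with at most 25 and 45 reads outside Huh-7 cells, also rest largely on Huh-7 against the rest. Their matches SLCO1B3 and ZNF701 reached only 1.16 and 1.32 FPKM. POU5F1 did not vary enough to be matched.

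Counting limits touch some of these genes. The kit did not mark the strand, so reads from genes that overlap on opposite strands cannot be told apart. TCF19 overlaps POU5F1 and reached 55.5 FPKM, so the 2 to 26 reads of POU5F1 may lack or include reads of its neighbor. USP2-AS1 overlaps THY1 and had at most 44 reads, and SOX9-AS1 overlaps SOX9 and reached 4.58 FPKM in Huh-7 cells. Copies of POU5F1, SALL4, KLF4 and CD24 elsewhere in the genome had 7 reads or fewer.

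Levels can be compared between genes only through the length used. The deposited FPKM imply, in 93.8% of 30118 genes, a length within 1 base of the mean over all transcripts of the gene in GENCODE 29, and only in 37.9% the length the tables list. For CD44 the implied length was 1009 bases, the mean of 39 transcripts, many of them short, against a listed 4589 bases. Its FPKM of 743 in SK-hep1 mock became 163 with the listed length. SOX9 had 3935 bases under both and stayed at 31.4 FPKM. CD44 was thus 23.7-fold above SOX9 in SK-hep1 mock as deposited and 5.20-fold with the listed lengths. ALDH1A1 went from 2606 to 1101 FPKM in untreated Huh-7 cells and was the highest of the 10 genes either way, and ratios of reads of 1 gene between libraries do not depend on the length.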

How the data were processed

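RNA was sequenced from 10 cell line libraries, 1 per condition, as labelled. The authors deposited raw read counts of each gene with the FPKM derived from them for 8 libraries (SK-hep1 and Mahlavu), and only the FPKM for Huh-7. The submitters' processing notes name TopHat2 2.0, HTSeq 0.6.1, edgeR and GRCh38.p12, while the paper's methods name another genome build and rRNA depletion in place of the poly-T selection of the labels. The deposited FPKM were not quantile normalized, so this step was done here, over the 8 libraries, over both Huh-7 libraries, and over the 3 control libraries for comparisons with Huh-7. Positions matched GENCODE 29 in 97.4% of 58039 shared genes.

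Huh-7 reads were recovered as whole multiples of 1 read. All 22724 genes of the untreated library and 22456 of the HGF library with a length came within 0.01 of a whole read. LIN28B, with no reads in the other libraries, was read through its mean transcript length of 3017 bases. With 1 library per condition, no test was made. A difference was counted at 2-fold or more on the log2(FPKM + 1) scale, where the mean reached 1 FPKM, and the share of all genes past the same fold is given beside it. A count of 0 was given a limit of 3 reads. On simulated counts for PSPC1 against mock, with 12921 genes tested, the steps found 100 of 100 genes set to a 4-fold change and 96 of 100 set to 2.5-fold, and called 24 of 12721 genes with none. These counts held counting error only and no difference between cultures, so they give no rate of false calls for the data. The changed genes were drawn among genes with more reads in SK-hep1 mock than CD24 and KLF4 had.

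The members and the gene lists were chosen with earlier results of these data known. The named genes were the 10 markers, PSPC1, PTK6, at most the 3 largest changes of at least 2-fold per list and comparison, the 2 genes most like each marker, and copies or overlapping genes. Pseudocounts, scalings, filters and the gene length were varied. Promoter sequences are from RefSeq (GRCh38.p14). Calculations used Python 3.11.15, numpy 2.4.6, pandas 2.3.3, scipy 1.17.1, matplotlib 3.10.9 and, for TMM factors, edgeR 4.0.16 in R 4.3.3.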

Additional observations from a re-analysis of the deposited data

Results flagged for a closer look

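KLF4 differed in direction between the forms of PSPC1 when PTK6 was added. Its log2 fold change was 1.21 in PSPC1/PTK6 against PSPC1, from 6.04 to 19.5 FPKM, and −0.72 in PSPC1-Y523F/PTK6 against PSPC1-Y523F, from 5.60 to 2.97 FPKM. With 1 library in each condition, the difference between these contrasts was not tested.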

How the results depend on the processing

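No marker turned its direction among called values under the alternatives tried. The number of markers past 2-fold moved as follows, beside the main value. With a pseudocount of 5, it was 1 in place of 2 in PSPC1/PTK6 against mock, 0 in place of 1 in PSPC1-Y523F against mock, 1 in place of 2 in PSPC1/PTK6 against PSPC1, 1 in place of 3 in PSPC1-CT131 against mock and 0 in place of 1 in Mut-NLS-CT131 against mock. A mean of at least 5 FPKM gave 0 in PSPC1-Y523F against mock, 1 in PSPC1-CT131 against mock and 0 in Mut-NLS-CT131 against mock, as fewer genes were tested. FPKM as deposited, or scaled to the same sum, gave 1 in PSPC1/PTK6 against mock. The listed gene length, an alternative chosen after seeing the data, gave 1 in PSPC1/PTK6, 0 in PSPC1-Y523F and 0 in Mut-NLS-CT131 against mock. Read counts scaled by TMM, and length and GC content taken out, each gave 1 in PSPC1/PTK6 against PSPC1. A pseudocount of 0.1, or no filter, gave 1 in place of 0 in PSPC1-CT131 against Mut-NLS-CT131. Smaller moves were as follows. In PSPC1-CT131 against mock the count of 3 became 2 with TMM (CD24 at −0.97) and with the listed length (THY1 under the filter), and 4 with FPKM scaled to the same sum or with no filter. In SK-hep1 mock against untreated Huh-7 cells, 8 became 7 with FPKM as deposited or scaled to the same sum and with a pseudocount of 5 (KLF4 at 0.70, 0.71 and 0.77), and 6 with a mean of at least 5 FPKM. In Mahlavu mock against untreated Huh-7 cells, 9 became 7 with a pseudocount of 5 (THY1 at 0.86, SALL4 at −0.97) and with a mean of at least 5 FPKM. In SK-hep1 mock against Mahlavu mock, 5 became 4 with a pseudocount of 5 (KLF4 at −0.71) and with the listed length (THY1 at 0.96). Except for the filters, the cause was not tested.

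Over all genes, a pseudocount of 5 took the genes past 2-fold from 1046 to 451 in PSPC1/PTK6 against mock and from 117 to 7 with HGF, and 0.1 gave 302 with HGF. In PSPC1-CT131 against mock, FPKM as deposited gave 1196 genes in place of 786, of which 16.3% were higher in place of 50.1%, with a median shift of −0.24 over all genes. In PSPC1/PTK6 against mock the share higher went from 60.5% to 80.7%, with a median shift of 0.15. Depth limits POU5F1, SALL4 outside Huh-7 and ALDH1A1 outside Huh-7, each with 45 reads or fewer. The TMM and listed-length alternatives were not run for Huh-7, and leaving out a library was not possible with 1 per condition. No paired analysis was possible because each condition has 1 library and the labels give no replicate numbers.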
